A study of Mus musculus with 629 samples.

Results

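The 7 genes described here encode growth factors, or a secreted matrix protein, that brain macrophages and microglia can release towards vessels: Tgfbi, Igf1, Pdgfb, Vegfb, Hbegf, Pdgfc and Vegfa. They were taken by symbol from the count table, which held all 7 members among 53546 gene symbols. The table covered 629 single brain cells of adult C57BL/6 mice, all labelled as carrying the reporter SM22-Cre;Rosa26-stop-tdTomato, in which the smooth muscle promoter SM22 drives the recombinase. Cells had been sorted by FACS into 384-well plates and sequenced as full-length polyadenylated cDNA with SMART-seq2. The labels gave Notch3 knockout (KO), heterozygous (Het) or wild-type (WT) genotype. Macrophages numbered 119 KO, 70 Het and 211 WT cells, and microglia numbered 78 KO, 58 Het and 79 WT cells. The other 14 cells, labelled only as type 7, entered no comparison. No label named an animal, so a genotype within a cell type was 1 sample, no test between groups was run, and no p-value is given.

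Perivascular macrophages sit along brain vessels, and microglia sit in the parenchyma. Platelet-derived growth factor B acts on mural cells through Pdgfrb, and vascular endothelial growth factors act on endothelium through Flt1 and Kdr. Insulin-like growth factor 1 signals through Igf1r and is held by binding proteins, heparin-binding EGF-like growth factor is shed from the membrane to activate Egfr, and Tgfbi is a matrix protein that binds integrins and is induced by transforming growth factor beta.

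Levels are in CPM, the usual scaling of counts to their total, here the gene counts without the spike-ins and without Rn18s, the 18S ribosomal RNA, which took 40.4% of gene counts and a share that differed between plates. Cells of 1 genotype on 1 of the 6 plates are called a pool, which gave 8 pools per cell type. The median depth per cell was 197196 counts in macrophages (1488 to 1959090) and 246554 in microglia (13829 to 2107020). Pool depth was uneven: plate 056s held 33892157 counts of Het macrophages, against 2470852 on plate 524s and 2687968 on plate 529s. Notch3 itself was nearly undetected, with 2, 0 and 77 counts in KO, Het and WT macrophages, each of the nonzero sums in 1 cell, and 1 count in each genotype of microglia, so it could not check the labels. The cell type labels fitted their markers. All 16 homeostatic microglia markers had lower summed levels in macrophages than in microglia, among them Tmem119 (73.1 against 5884 CPM), and all 16 perivascular macrophage markers had higher ones, among them Mrc1 (7836 against 3421 CPM). Perivascular markers were thus also high in the cells labelled microglia.

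Tgfbi, on chromosome 13, was the most abundant member in both cell types. It had a count in 399 of 400 macrophages (99.8%, 95% Clopper-Pearson interval 98.6 to 100.0%) and in 207 of 215 microglia (96.3%, 92.8 to 98.4%). Igf1, on chromosome 10, followed with 350 macrophages (87.5%, 83.9 to 90.6%) and 167 microglia (77.7%, 71.5 to 83.1%). Set per kb of merged exons, which allows levels of different genes to be compared, Tgfbi stood at 462 CPM per kb in macrophages and 217 in microglia. Igf1 stood at 33.9 and 19.3 CPM per kb. The remaining members were lower: Vegfb at 7.01 and 6.21, Pdgfb at 2.54 and 10.8, Pdgfc at 1.44 and 0.178, Hbegf at 0.619 and 1.82, and Vegfa at 0.00201 and 0.00963 CPM per kb in macrophages and microglia. Pdgfb thus ranked below Vegfb in macrophages and above it in microglia.

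The 250 bases before the RefSeq start sites (GRCm38.p6) of both abundant members are shown because these genes were higher in macrophages in all 8 pools. Tgfbi is at chr13:56609336-56609585 and Igf1 at chr10:87860861-87861110, both on the plus strand. Capitals mark TGANTCA, the letters of AP-1 sites.
Tgfbi: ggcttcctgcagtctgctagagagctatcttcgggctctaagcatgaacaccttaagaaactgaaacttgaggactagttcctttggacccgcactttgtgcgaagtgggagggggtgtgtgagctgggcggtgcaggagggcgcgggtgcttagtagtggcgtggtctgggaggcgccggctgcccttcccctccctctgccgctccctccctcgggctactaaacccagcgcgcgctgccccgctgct
Igf1: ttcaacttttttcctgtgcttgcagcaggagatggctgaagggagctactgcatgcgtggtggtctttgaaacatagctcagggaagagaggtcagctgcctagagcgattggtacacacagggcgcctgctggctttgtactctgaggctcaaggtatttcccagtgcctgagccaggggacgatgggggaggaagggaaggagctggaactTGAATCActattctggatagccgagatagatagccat
The search covered both strands for TGANTCA and for ACGTG, the core of hypoxia response elements, motifs that do not overlap as searched. Igf1 held 1 match to TGANTCA and Tgfbi held neither motif. Among 32851 windows of the same length, 6.75% held TGANTCA and 16.6% held ACGTG. The 5 of 7 members with a window included Vegfb and Pdgfc, whose windows held neither motif. Vegfa had a pair of windows on the minus strand. The one upstream, at chr17:46032378-46032627, held neither motif, and the one downstream, at chr17:46025164-46025413, held 1 ACGTG match. Whether the downstream window acts as a promoter, or its match as a response element, was not tested.

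**Figure D1:**
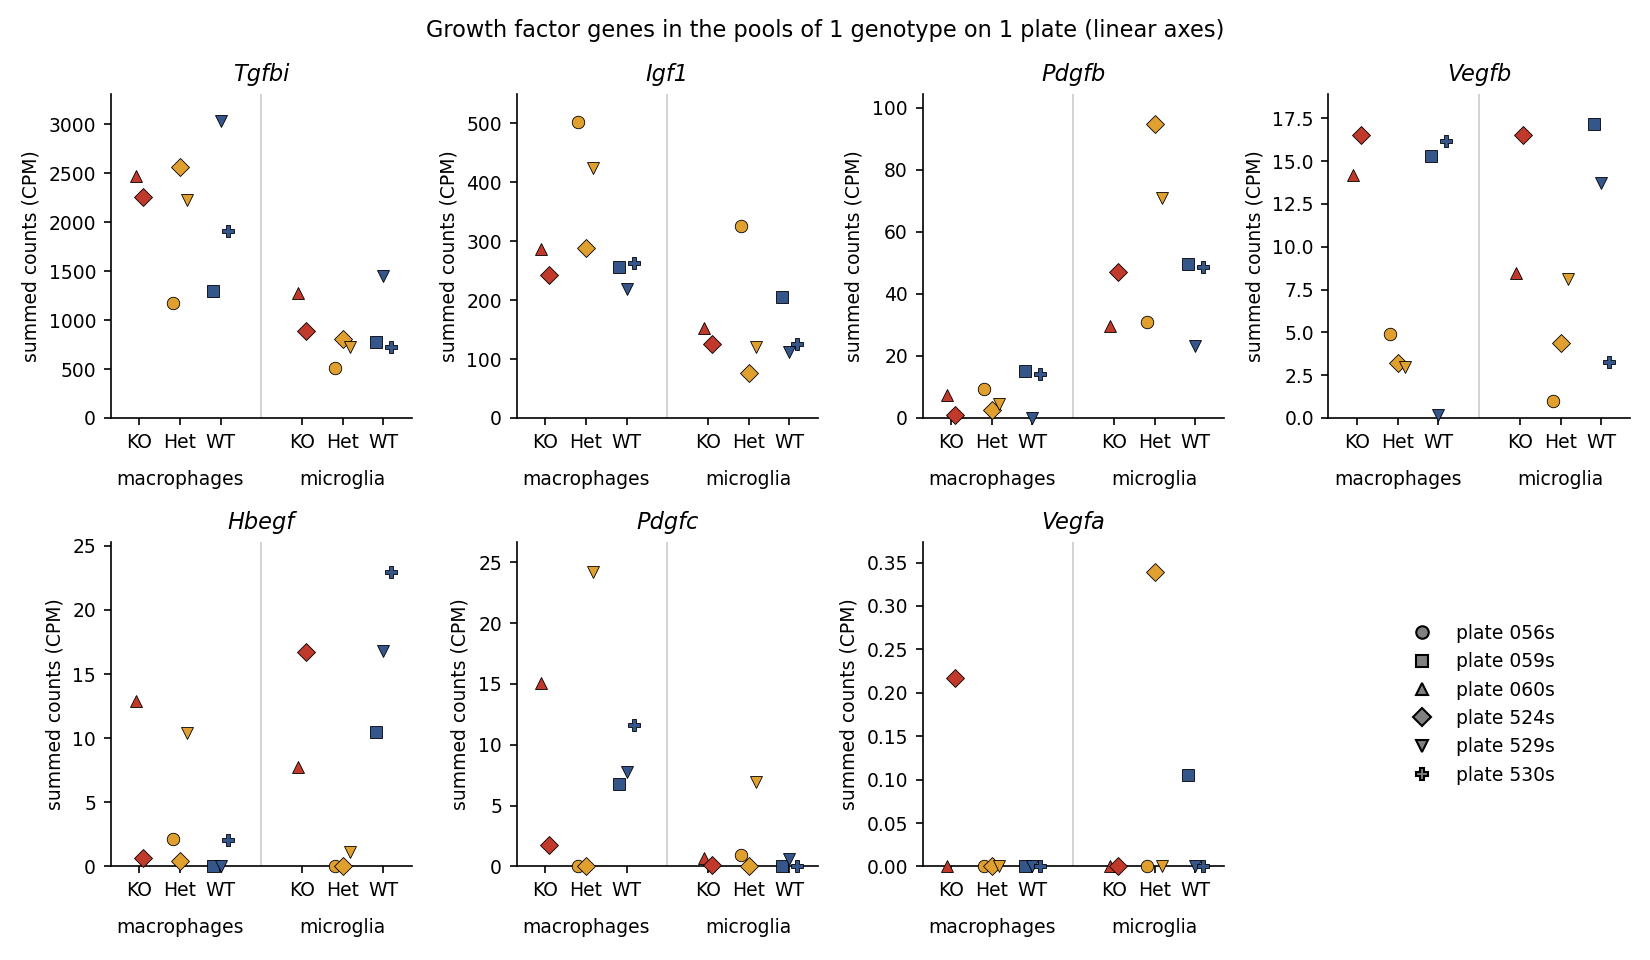
Summed level (CPM, linear axes from 0) of each member in the 8 pools of macrophages and the 8 of microglia, KO left of Het and WT, with 1 point per pool and the plate given by its shape. Within each pool, Tgfbi and Igf1 were higher in macrophages and Pdgfb in microglia, and Vegfa reached at most 0.339 CPM. Across plates, single pools of the cell types overlapped for Tgfbi and Igf1.

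Macrophages and microglia were compared first. A gene was called measured at 20 CPM and a count in 25% of cells in the same group, and apart at a 2-fold ratio of CPM + 1 with the same direction in all 8 pools. Of 6230 measured genes, 1.81% were apart as higher and 4.67% as lower in macrophages, with a median log2 ratio of 0.01. By the same rule 15 of the 16 homeostatic microglia markers were apart as lower and 11 of the 16 perivascular macrophage markers as higher. The measured members were 3, Tgfbi, Igf1 and Pdgfb, and Vegfb, Hbegf, Pdgfc and Vegfa were under the floor. Tgfbi was apart as higher and Pdgfb as lower in macrophages.

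Tgfbi reached 2470 and 2255 CPM in KO macrophages of plates 060s and 524s, against 1277 and 883 CPM in KO microglia of the same plates. Het macrophages had 1175, 2566 and 2221 CPM on plates 056s, 524s and 529s, against 511, 810 and 728 CPM in Het microglia. WT macrophages had 1301, 3029 and 1912 CPM on plates 059s, 529s and 530s, against 774, 1450 and 721 CPM in WT microglia. Macrophages were higher in each pool, by 0.75 to 1.66 on the log2 scale, though single pools of the cell types overlapped across plates. Summed over cells, Tgfbi stood at 1743 CPM in macrophages against 817 CPM in microglia, a log2 ratio of 1.09. The ratio ran from 1.02 to 1.14 when 1 plate was left out.

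Igf1, the ligand of the IGF1 receptor, was at 287 and 242 CPM in KO macrophages of plates 060s and 524s, against 153 and 125 CPM in KO microglia. In Het macrophages it was at 503, 288 and 423 CPM on plates 056s, 524s and 529s, against 326, 75.9 and 121 CPM in Het microglia. In WT macrophages it was at 256, 218 and 262 CPM on plates 059s, 529s and 530s, against 205, 113 and 125 CPM in WT microglia. Within every pool Igf1 was higher in macrophages, by 0.32 to 1.91 on the log2 scale, though single pools of the cell types overlapped across plates. The sums were 336 CPM in macrophages against 191 CPM in microglia, a log2 ratio of 0.81, which stayed under the 2-fold limit.

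Pdgfb, on chromosome 15, had a count in 48 of 400 macrophages (12.0%, 8.98 to 15.6%) and in 91 of 215 microglia (42.3%, 35.6 to 49.2%). Over single pools the share ran from 0 to 21.3% in macrophages and from 30.0 to 80.0% in microglia, with no overlap. In KO macrophages it was at 7.47 and 1.09 CPM on plates 060s and 524s, against 29.7 and 46.9 CPM in KO microglia. In Het macrophages it was at 9.29, 2.43 and 4.46 CPM on plates 056s, 524s and 529s, against 30.9, 94.9 and 71.0 CPM in Het microglia. In WT macrophages it was at 15.2, 0 and 14.2 CPM on plates 059s, 529s and 530s, against 49.8, 23.1 and 48.8 CPM in WT microglia. The lowest microglia pool lay above the highest macrophage pool. How many of all genes separate by share or by CPM in this way was not counted. Summed levels were 10.6 CPM in macrophages against 45.1 CPM in microglia, 3.99-fold higher in microglia. The log2 ratio ran from -2.20 to -1.83 with 1 plate left out.

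Shares of cells depend on depth, so cells were also thinned to 50000 counts, which kept 375 macrophages and 205 microglia and left out 25 and 10. Pdgfb was then found in 8.27% of macrophages and 36.1% of microglia, with intervals of 5.69 to 11.5% and 29.5 to 43.1%. Igf1 was found in 82.7% and 69.8% (78.5 to 86.4% and 63.0 to 76.0%), and Tgfbi in 98.4% and 92.2% (96.5 to 99.4% and 87.6 to 95.5%). The order of the cell types was thus the same at equal depth for these 3 genes. These intervals take cells as independent, do not cover the spread between pools and are no test between the cell types.

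**Figure D2:**
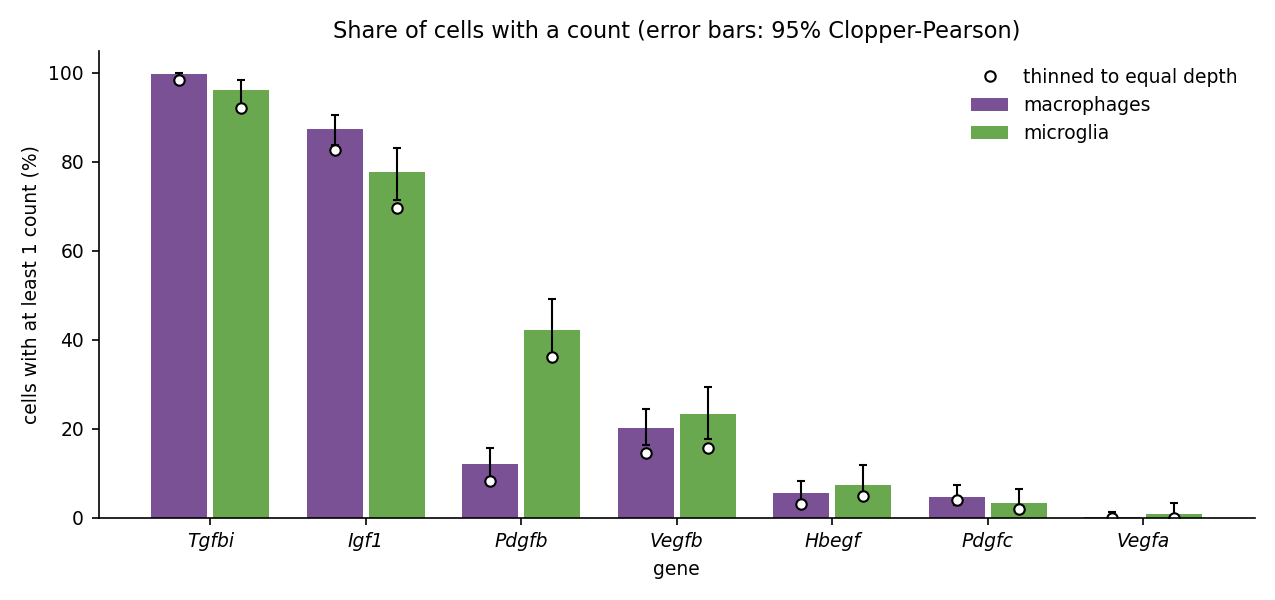
Percent of cells with at least 1 count (axis from 0) for each member in all macrophages, left bar of each pair, and all microglia, right bar, with 95% Clopper-Pearson error bars and, as open circles, the share after thinning to 50000 counts. Pdgfb was found in 12.0% of macrophages and 42.3% of microglia, while Tgfbi was found in nearly all cells of both types.

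The 4 members under the floor were carried by few cells. Vegfb, which acts on Flt1, had a count in 81 macrophages (20.3%) and 50 microglia (23.3%). Its pools ran from 0.198 to 16.5 CPM in macrophages and from 0.993 to 17.2 CPM in microglia, so the cell types overlapped. Hbegf, on chromosome 18, had a count in 22 macrophages (5.50%) and 16 microglia (7.44%), at 2.99 and 8.82 CPM. Its pools ran from 0 to 12.9 CPM in macrophages and from 0 to 22.9 CPM in microglia. Its single highest cell gave 21.0% of all counts in macrophages and 21.8% in microglia, and within a pool the share of the top cell reached 100%.

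Pdgfc, on chromosome 3, a ligand of Pdgfra, was found in 19 macrophages (4.75%) and 7 microglia (3.26%). Its summed level was 7.33 CPM in macrophages (Poisson 95% interval 6.84 to 7.84) and 0.908 CPM in microglia (0.702 to 1.15), with pools of 0 to 24.2 CPM and 0 to 6.93 CPM, but 1 cell gave 28.4% of the macrophage counts and 1 gave 45.5% of the microglia counts. Het macrophages had all 65 of their Pdgfc counts in 1 cell. Vegfa, on chromosome 17, the main endothelial growth factor of the family, had 1 count in 1 of 400 macrophages (0.250%, 0.00633 to 1.38%) and 3 counts in 2 of 215 microglia (0.930%, 0.113 to 3.32%). No ratio is given for Vegfa, since both sums were at or below 3 counts. Vegfa was therefore barely detectable at this depth, which does not show that it is absent from the cells.

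Taken per cell, 253 of 400 macrophages (63.3%) and 91 of 215 microglia (42.3%) held no count of Pdgfb, Vegfb, Hbegf, Pdgfc or Vegfa. Exactly 1 of these 5 was found in 124 macrophages (31.0%) and 86 microglia (40.0%), and 2 were found in 22 macrophages (5.50%) and 34 microglia (15.8%). No cell of either type held more than 3. Of the 48 macrophages with Pdgfb, 8 (16.7%) also held Vegfb, which is 9.88% of the 81 with Vegfb. Among the same 48, 1 held Hbegf, which is 4.55% of the 22 with Hbegf. Of the 91 microglia with Pdgfb, 25 (27.5%) also held Vegfb, which is 50.0% of the 50 with Vegfb, and 10 held Hbegf, which is 62.5% of the 16 with Hbegf. Over all cells, Pdgfb was found in 12.0% of macrophages and 42.3% of microglia. Whether these genes occur together beyond such shares and depth was not tested.

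**Figure D3:**
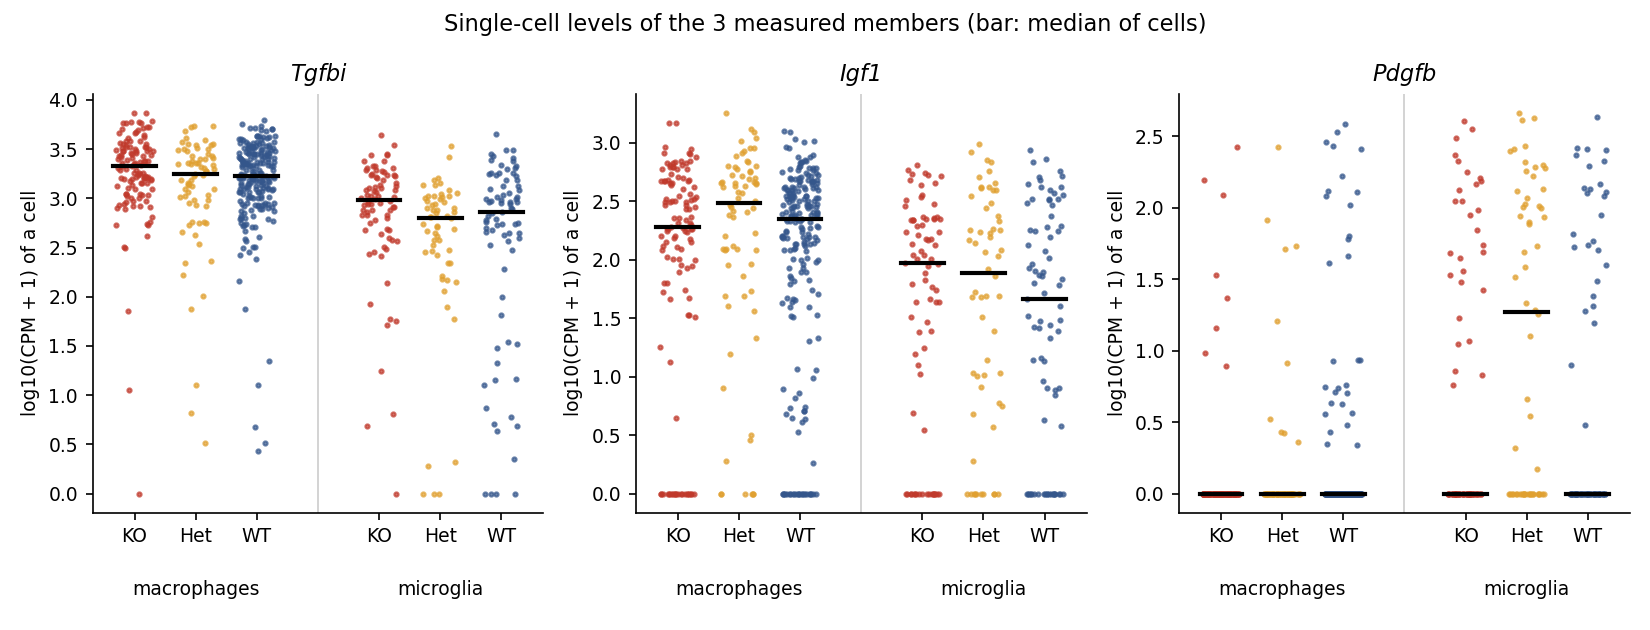
Level of Tgfbi, Igf1 and Pdgfb in each macrophage and microglial cell, as log10(CPM + 1), with KO left of Het and WT and a black bar at the median of cells. Medians of Tgfbi were 2113, 1755 and 1691 CPM in KO, Het and WT macrophages and 964, 635 and 723 CPM in KO, Het and WT microglia.

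Single cells varied widely within each group. In macrophages the 10th, 50th and 90th percentiles of Tgfbi were 540, 1779 and 4058 CPM, and in microglia they were 18.0, 785 and 2022 CPM. Igf1 had a median of 222 CPM in macrophages against 66.9 CPM in microglia, with 10th percentiles of 0 in both. Pdgfb had a median of 0 in both cell types.

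Within microglia, Tgfbi and Igf1 moved with macrophage markers. Spearman's rho was computed within each pool and averaged over the pools by cells, as a description with no p over 215 cells that share plates, libraries and depth. Against the summed CPM of the 16 perivascular macrophage markers, rho was 0.55 for Tgfbi, 0.38 for Igf1 and -0.19 for Pdgfb. Against the 16 homeostatic microglia markers it was -0.25, -0.42 and 0.14. Among macrophages, the rho of these 3 members against either list ran from -0.09 to 0.13 (400 cells; 374 for Pdgfb, which had no count in 1 pool).

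Microglia were ranked by the summed perivascular markers and cut in 3 sets of 72, 72 and 71 cells, which were made from the data and are not groups of the study. Tgfbi stood at 328 CPM in the lowest set, 912 CPM in the middle and 1120 CPM in the highest. Igf1 stood at 89.0, 215 and 250 CPM. Pdgfb stood at 56.9, 53.1 and 27.9 CPM, with counts in 40, 28 and 23 cells. Tgfbi and Igf1 were thus lowest, and Pdgfb most often found, in microglia with the least marker signal. The sets were cut over all microglia and not within pools, so they can differ in plate and genotype. The part of plate and genotype in these values was not tested. The summed marker level in pools ran from 26338 to 38740 CPM in macrophages and from 8819 to 18465 CPM in microglia, and its part in the difference between the cell types was not tested.

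**Figure D4:**
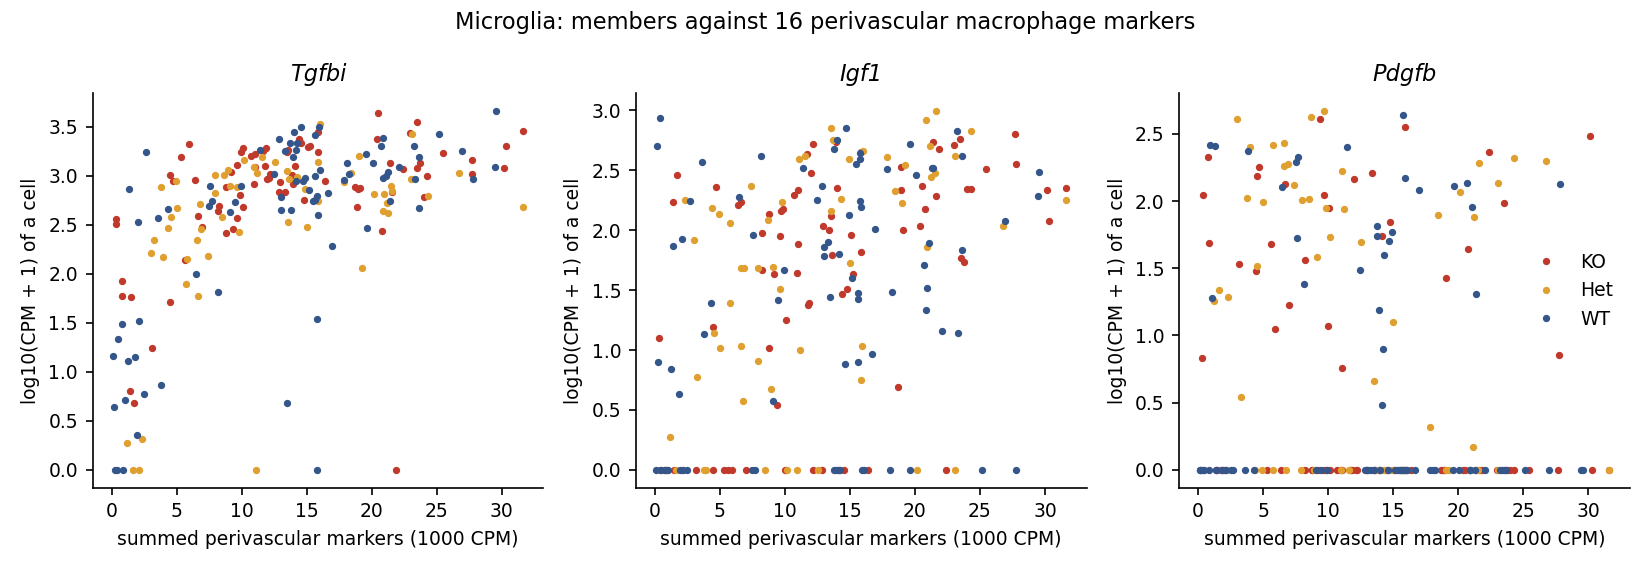
Level of Tgfbi, Igf1 and Pdgfb in single microglia, as log10(CPM + 1), against the sum of 16 perivascular macrophage markers in units of 1000 CPM, with 1 point per cell and colour by genotype. Cells with less marker signal tended to hold less Tgfbi, with a mean within-pool rho of 0.55, and Pdgfb showed a rho of -0.19.

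The genes most like each measured member were ranked by the same within-pool rho among genes with a count in 25% of cells. In microglia, Tgfbi was most like Mrc1 (rho 0.53), F13a1 (0.48) and Dab2 (0.47), of which Mrc1 and F13a1 belong to the perivascular markers. Igf1 was most like Ms4a7 (0.46), Ap2s1 (0.39) and Pf4 (0.38), of which Ms4a7 and Pf4 belong to those markers. Pdgfb was most like Uckl1 (0.28), Akap8l (0.28) and Rhno1 (0.27). In macrophages the values were lower: Tgfbi was most like Mrc1 (0.23), Ifitm2 (0.23) and Csf1r (0.22), and Igf1 most like Ube2q2, Ms4a7 and Lst1 (0.20, 0.20 and 0.19). Tgfbi and Igf1 themselves had a rho of 0.03 in macrophages and 0.11 in microglia.

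Other genes of these pathways were read from lists. Of 15 further ligands of the same families only Tgfa, an EGF receptor ligand, was measured between the cell types, at 33.8 CPM in macrophages against 94.1 CPM in microglia, and it was not apart because its pools differed in direction. Of 18 receptors and integrins 8 were measured. Egfr, the receptor of Hbegf, was apart as higher in macrophages (60.6 against 29.6 CPM), and the integrin subunit Itgb5 was apart as lower (149 against 633 CPM). Nrp1, a coreceptor of vascular endothelial growth factors, was at 1348 CPM in macrophages against 693 CPM in microglia, under the 2-fold limit. The vascular receptors Pdgfrb, Flt1 and Kdr were near 0, with 0.189, 0.0172 and 1.48 CPM in macrophages and 0.275, 0.536 and 1.03 CPM in microglia.

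Of 8 IGF binding proteins 1 was measured: Igfbp4 was at 2230 CPM in macrophages against 1123 CPM in microglia, higher in all 8 pools and just under 2-fold (log2 ratio 0.99). Of 12 genes of ligand processing 7 were measured, and 1 was apart: Cd9, a tetraspanin that associates with Hbegf, was at 10.1 CPM in macrophages against 348 CPM in microglia. The protease genes Adam10 and Adam17, whose products shed membrane ligands, were at 114 and 214 CPM in macrophages and 170 and 273 CPM in microglia and were not apart. Of 16 hypoxia regulators and targets 7 were measured, and Vhl (36.9 against 82.1 CPM) and the glucose transporter Slc2a1 (23.6 against 72.2 CPM) were apart as lower in macrophages. Medians over the measured genes of these lists were 0.23 for receptors, 0.34 for processing and -0.63 for hypoxia on the log2 scale, beside 0.01 over all measured genes.

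Markers of vessel cells were low. The summed level of 12 mural cell markers was at most 13.2 CPM in any macrophage pool and at most 103 CPM in any microglia pool, and that of 8 fibroblast markers at most 36.7 and 67.6 CPM. The 12 endothelial markers summed to at most 26.5 CPM in macrophage pools and 88.4 CPM in microglia pools. Among them Pecam1 alone was measured, at 49.1 CPM over all microglia, while Cdh5 stood at 0.0825 CPM. Markers of other cells were not all low. In macrophages and microglia, oligodendrocyte markers summed to 711 and 479 CPM and astrocyte markers to 145 and 208 CPM. Neuron markers summed to 35.3 and 14.8 CPM, and monocyte and neutrophil markers to 19.6 and 43.0 CPM. Their part in the levels of the members was not tested.

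KO cells were compared with Het and WT cells within each cell type. A member was apart where KO lay at least 1.5-fold beyond both and every KO pool lay beyond every Het and WT pool. Of 5483 measured genes in macrophages, 0.839% were apart as higher and 1.64% as lower in KO, and of 6796 in microglia 1.25% were higher and 0.971% lower. None of the members measured, 2 in macrophages (Tgfbi and Igf1) and 3 in microglia (also Pdgfb), was apart in KO. The median log2 ratio over all measured genes was -0.07 over Het and -0.06 over WT in macrophages, and 0.01 and -0.04 in microglia. With 2 KO pools and no animal labels, the rule resolves only differences larger than those between plates.

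Tgfbi in macrophages stood at 2414 CPM in KO, 1335 CPM in Het and 1811 CPM in WT, log2 ratios of 0.85 over Het and 0.41 over WT. The KO pools, at 2470 and 2255 CPM, fell inside the range of the Het and WT pools, 1175 to 3029 CPM. On plate 524s, which held both genotypes, it was at 2255 CPM in KO and 2566 CPM in Het macrophages, a log2 ratio of -0.19. Without plate 056s the KO over Het ratio was 0.02.

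Tgfbi in microglia stood at 1056 CPM in KO, 599 CPM in Het and 842 CPM in WT. The KO pools, at 1277 and 883 CPM, overlapped WT, whose pool of plate 529s reached 1450 CPM. On plate 524s it was at 883 CPM in KO and 810 CPM in Het microglia, a log2 ratio of 0.12. Summed perivascular markers of these pools ran from 12798 to 14013 CPM in KO, from 9703 to 14985 CPM in Het and from 8819 to 18465 CPM in WT microglia, and their part in the Tgfbi levels was not tested.

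Igf1 in macrophages stood at 276 CPM in KO, 484 CPM in Het and 256 CPM in WT, and the KO pools, at 287 and 242 CPM, lay between the lowest WT pool, at 218 CPM, and the lowest Het pool, at 288 CPM. In microglia it stood at 137 CPM in KO, 247 CPM in Het and 178 CPM in WT, with overlapping pools. There the log2 ratio of KO over Het, -0.85, was 0.37 without plate 056s, and that of KO over WT, -0.38, was 0.19 without plate 059s. Within plate 524s the log2 ratio of KO over Het was -0.25 in macrophages and 0.71 in microglia, so the cell types differed in direction there. That difference was not tested.

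Pdgfb in microglia stood at 39.4 CPM in KO, 48.1 CPM in Het and 46.5 CPM in WT, and was found in 37.2%, 60.3% and 34.2% of cells. Over single pools the share of cells ran from 31.9 to 45.2% in KO and from 30.0 to 36.4% in WT. In Het it ran from 53.3 to 80.0%, above both, with 15 microglia each in the Het pools of plates 056s and 524s. How many of all genes separate by share in this way was not counted, and by CPM the pools of the genotypes overlapped. Thinned to equal depth the shares over all cells were 32.0%, 50.9% and 29.9% in KO, Het and WT. On plate 524s it was at 46.9 CPM in KO and 94.9 CPM in Het microglia. In macrophages Pdgfb was under the floor, at 5.81 CPM in KO, 8.53 CPM in Het and 13.3 CPM in WT, and the log2 ratio of KO over Het, -0.48, was 0.60 without plate 056s.

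The members under the floor are given as values. Vegfb was at 14.8 CPM in KO, 4.66 CPM in Het and 14.5 CPM in WT macrophages, and at 13.0, 3.11 and 14.0 CPM in KO, Het and WT microglia. Het was lowest in both cell types, but in macrophages the WT pool of plate 529s, at 0.198 CPM, lay below every Het pool, and in microglia the WT pool of plate 530s, at 3.28 CPM, lay below the Het pools of plates 524s and 529s, at 4.41 and 8.09 CPM. Hbegf was at 9.70, 2.61 and 1.24 CPM in KO, Het and WT macrophages, where 1 KO cell gave 42.4% of the KO counts. The KO pools of plates 060s and 524s were at 12.9 and 0.651 CPM. Without plate 060s the log2 ratio of KO over Het was -1.13, against 1.57 with all plates, and that of KO over WT was -0.44, against 2.25, so both turned. In microglia it was at 12.8, 0.279 and 13.7 CPM, from 7, 2 and 7 cells. Its Het pools of microglia were at 0, 0 and 1.16 CPM on plates 056s, 524s and 529s. All lay below the WT pools, at 10.5, 16.8 and 22.9 CPM on plates 059s, 529s and 530s. These WT pools rested on 2, 3 and 2 cells with a count, in a gene that was under the floor. The share of all genes under the floor that separate in this way was not counted.

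Pdgfc was at 11.6, 1.66 and 9.77 CPM in KO, Het and WT macrophages, from 5, 1 and 13 cells. Without plate 056s the log2 ratio of KO over Het was -0.11, against 2.24 with all plates, and that of Het over WT was 0.34, against -2.02, and without plate 060s that of KO over WT was -1.98, against 0.23. In microglia Pdgfc was at 0.351, 2.27 and 0.0723 CPM in KO, Het and WT cells, from 2, 4 and 1 cells. The only Vegfa count in macrophages came from 1 KO cell of plate 524s.

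Het cells were compared with WT cells by a 1.5-fold limit and no overlap of the 3 Het and 3 WT pools. Of 5337 measured genes in macrophages 2.36% were apart as higher and 3.64% as lower in Het, and of 6601 in microglia 2.61% were higher and 2.85% lower. Of 2 measured members 1 was apart in macrophages, Igf1, and of 3 in microglia 0 were. The median log2 ratio over all measured genes was 0.02 in macrophages and -0.04 in microglia.

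Igf1 in Het macrophages was at 503, 288 and 423 CPM on plates 056s, 524s and 529s, against 256, 218 and 262 CPM in WT macrophages on plates 059s, 529s and 530s. The pools did not overlap, and the lowest Het pool was close to the highest WT pool. Summed, Het macrophages were at 484 CPM and WT macrophages at 256 CPM, a log2 ratio of 0.91. In Het macrophages 1 cell gave 18.7% of the Igf1 counts. The median of cells was 303 CPM in Het and 220 CPM in WT macrophages. On plate 529s, which held both genotypes, Igf1 was at 423 CPM in Het and 218 CPM in WT macrophages, a log2 ratio of 0.95. Without plate 056s the ratio was 0.48 and Igf1 was no longer apart, and in thinned cells it was 0.42. Plate 056s held no WT cells, so plate and genotype cannot be told apart there.

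In Het microglia, Igf1 was at 326 CPM on plate 056s and at 75.9 and 121 CPM on plates 524s and 529s, against 205, 113 and 125 CPM in WT microglia. The log2 ratio was 0.47 over all plates and -0.75 without plate 056s. Tgfbi was at 1335 CPM in Het and 1811 CPM in WT macrophages and at 599 CPM in Het and 842 CPM in WT microglia, log2 ratios of -0.44 and -0.49 with overlapping pools. Without plate 056s these ratios were 0.40 in macrophages, where the direction turned, and -0.16 in microglia. On plate 529s they were -0.45 and -0.99. Pdgfb was at 48.1 CPM in Het and 46.5 CPM in WT microglia, a log2 ratio of 0.05. On plate 529s it was at 71.0 CPM in Het and 23.1 CPM in WT microglia, a log2 ratio of 1.58, and without plate 056s the ratio over the remaining plates was 0.75.

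**Figure D5:**
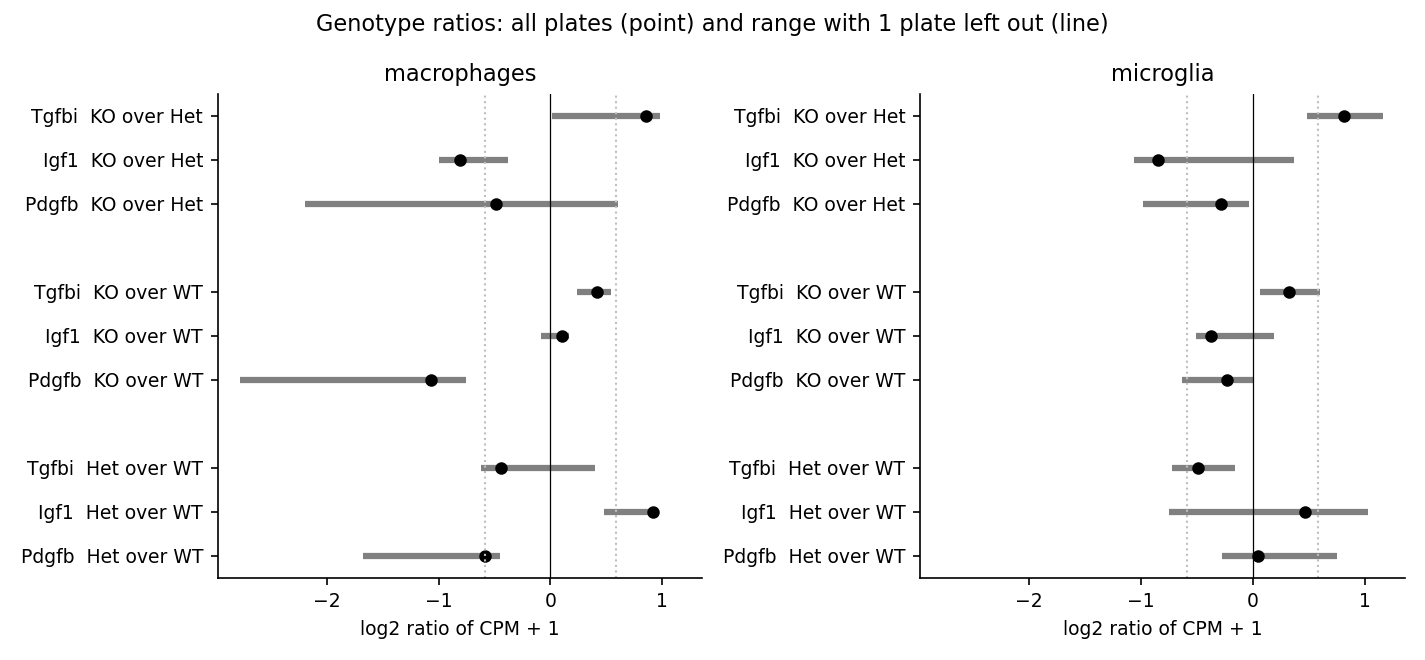
Log2 ratio of CPM + 1 of Tgfbi, Igf1 and Pdgfb between genotypes in macrophages, left, and microglia, right, with a point for all plates, a grey line for the range with 1 plate left out and dotted lines at 1.5-fold. The range of Tgfbi in macrophages, KO over Het, ran from 0.02 to 0.98, and that of Igf1 in macrophages, Het over WT, from 0.48 to 0.96.

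Few genes of the pathway lists were apart between genotypes. In KO macrophages 0 of 8 measured receptors and 0 of 6 processing genes were apart, and Igfbp4, at 3338 CPM in KO, 1444 CPM in Het and 2415 CPM in WT, was not. Of 6 measured hypoxia genes 1 was apart, Pfkfb3, a glycolytic regulator, at 10.9 CPM in KO, 63.0 CPM in Het and 52.6 CPM in WT. In KO microglia 0 of 9 receptors and 0 of 8 processing genes were apart, and 1 of 8 hypoxia genes was, Arnt, the partner of Hif1a, at 41.3 CPM in KO, 117 CPM in Het and 76.9 CPM in WT. In Het macrophages 1 of 5 hypoxia genes was apart, the kinase Pdk1, at 22.7 CPM in Het and 48.3 CPM in WT, and in Het microglia 1 of 7, Pfkfb3, at 47.6 CPM in Het and 114 CPM in WT.

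Immediate early genes, which rise with cell handling, were apart as lower in Het in 2 of 9 measured genes of macrophages (Fos and Junb) and 4 of 10 of microglia (Junb, Egr1, Ier2 and Ier3). Their summed level was 1174 to 1859 CPM in Het and 985 to 5135 CPM in WT macrophages, and 833 to 1190 CPM in Het and 1079 to 4810 CPM in WT microglia, both upper values coming from WT cells of plate 529s. Across single macrophages Igf1 and the summed immediate early genes had a mean within-pool rho of -0.0019, and in microglia of -0.10. In KO, 0 of 9 measured immediate early genes of macrophages and 0 of 10 of microglia were apart. Their median log2 ratio in KO macrophages was -1.15 over Het and -0.98 over WT, against -0.26 in Het over WT. In microglia these medians were 0.18, -0.97 and -1.14. The part of immediate early genes in the Het over WT and KO values was not tested.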

How the data were processed

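Single brain cells of 3 Notch3 genotypes were sorted into plates and sequenced with SMART-seq2, per the labels' protocols. The authors' deposited values are raw counts per gene and cell for 53546 symbols, beside 92 ERCC spike-ins with 1.22% of the counts, which were left out. STAR was named in the submitters' processing notes. The genome build, annotation and counting program are not given in the sources used here, so counts of overlapping genes could be shared (1 member, Pdgfc, overlaps an antisense gene that held 0 counts). All columns were matched to labels by name.

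Group levels are sums of counts over cells, scaled to CPM without Rn18s, with exact Poisson 95% intervals. SMART-seq2 reads carry no molecular identifiers, so the Poisson intervals cover the counting of reads and not of molecules. They do not cover the spread between cells or pools. Shares of cells carry Clopper-Pearson intervals, which take cells as independent and do not cover the spread between pools. Ratios were formed on CPM + 1. The floor of 20 CPM and 25% of cells and the limits of 2-fold between cell types and 1.5-fold between genotypes are stated with each comparison. No test between groups was run. All 7 members were named; of the other lists, genes apart or otherwise the most abundant were named, with a few vascular receptors and proteases chosen after their values were seen. The 3 most alike genes were named by rho, leaving out predicted, ribosomal protein, mitochondrial and sex-linked genes. The members, the 16 lists (186 genes) and the rules were chosen with earlier results of these data known. In all, 19 alternatives were tried. The code was tested on simulated data. Gene lengths came from GENCODE M21, in which 50067 symbols were found, and promoter windows from RefSeq. Python 3.11.15, pandas 2.3.3, numpy 2.4.6, scipy 1.17.1, matplotlib 3.10.9, R 4.3.3, edgeR 4.0.16 and DESeq2 1.42.0 were used, the last 2 for scaling factors only.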

Additional observations from a re-analysis of the deposited data

Results flagged for a closer look

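Among the 14 sets of 8 pools, 7 members in each of 2 cell types, 3 had a highest pool that stood apart from the other 7 by Dixon's criterion of 0.526, where chance marks about 1 in 20 sets of continuous values. That rate does not hold for members at 0 in most pools, where 1 count is enough to set a pool apart. Vegfa in macrophages was highest in KO of plate 524s, at 0.217 CPM from 1 count, with the other 7 pools at 0. Vegfa in microglia was highest in Het of plate 524s, at 0.339 CPM, likewise from 1 count. Pdgfc in microglia was highest in Het of plate 529s, at 6.93 CPM, where 1 cell gave 71.4% of 42 counts.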

How the results depend on the processing

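Under the 19 alternatives, Tgfbi and Igf1 were higher and Pdgfb lower in macrophages than in microglia every time, with log2 ratios of 0.92 to 1.27, 0.70 to 1.17 and -2.70 to -1.69. The number of members apart between the cell types was 2, also with each plate left out (2 to 2), and 1 (Pdgfb) on plates 056s, 059s and 060s alone. In KO it was 0 in both cell types, also with each plate left out (0 to 0), and on plates 056s, 059s and 060s alone it was 1 (Tgfbi, higher) in macrophages and 1 (Tgfbi, higher) in microglia. In Het macrophages it was 1 (Igf1), and 0 with the mean of cells' own CPM, with Rn18s in the total, at a 2-fold limit, in cells thinned to 50000 counts, without the top cell of each pool, and on plates 524s, 529s and 530s alone. With each plate left out it ranged from 0 (without 056s) to 1. In Het microglia it was 0, and 1 (Hbegf, lower) with a floor of 5 CPM. Hbegf had a count in 3.45% of Het and 8.86% of WT microglia, from 2 and 7 cells. The setting with 5 CPM thus cannot have kept the 25% of cells that the main floor asks for. On plates 056s, 059s and 060s alone, with 1 pool per genotype, Tgfbi and Pdgfb were lower and Igf1 higher in Het than in WT microglia. On plates 524s, 529s and 530s alone the number of members apart in Het microglia was 1 (Pdgfb, higher). With each plate left out it ranged from 0 to 1 (Pdgfb, higher, without 056s). The causes were not tested. On 3 plates alone each genotype can rest on 1 pool, and 47.7% of all measured genes were then apart in Het microglia. Plates 056s, 059s and 060s held 1 genotype each, so plate and genotype cannot be told apart on them. The member counts in the other settings have no such share beside them and are not read as results about the members. With Rn18s in the total the median of all measured genes shifted to 0.51 in Het over WT macrophages, -0.50 in KO over Het macrophages and -0.21 in KO over Het microglia. No paired analysis was possible because no label pairs animals across genotypes, and the values within pools and plates are given as descriptions with no paired test. The values of Vegfa, Pdgfc and Hbegf rest on a few cells, and whether greater depth would find them in more cells was not tested.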

Other observations

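The 14 cells that the labels name only as type 7 were shallower, with a median of 25329 counts. All 14 held Tgfbi, at 1127 CPM summed, and 8 held Igf1, at 145 CPM. Vegfb was found in 4, Pdgfb in 3 and Hbegf in 1 of them. Pdgfc and Vegfa were found in 0 of 14, which allows levels of up to 3.93 CPM by the limit of 3 counts.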
